A study of Homo sapiens with 3 samples.

Results

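The genes described here are the 4 Notch receptors (NOTCH1, NOTCH2, NOTCH3 and NOTCH4), their ligands of the Delta and Jagged families (DLL1, DLL3, DLL4, JAG1 and JAG2) and RBPJ, the DNA-binding protein through which the receptors act in the nucleus. They were chosen by name, as all non-control probes whose gene name in the array files is one of these 10, which gave 15 probes of 58201 on the array. A gene was kept where at least 1 of its probes was well above background on at least 1 array, as 22619 genes and 8 of the 10 Notch genes were. DLL3 and DLL4 were the other 2.

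The arrays come from HCT116 cells, a human colorectal cancer cell line, transfected with a small interfering RNA (siRNA) against SMARCA4 (SMARCA4-KD1 or SMARCA4-KD2) or used as the negative control (NC). SMARCA4, also called BRG1, is an ATPase that drives the SWI/SNF chromatin remodelling complex. RNA from each condition was labelled with Cy3 and hybridised to 1 Agilent array of 1 colour, so there are no replicates, the spread between them is unknown, and precision is limited by the number of arrays. The study asked which genes depend on SMARCA4 in these cells, and as a single NC array serves for both knockdowns, an error on it enters both comparisons. All conditions share the cell line, its medium and the transfection reagent named in the labels. The labels contradict themselves on the target, since titles and the siRNA protocol give SMARCA4 while the treatment field gives PRMT1, and it is that field which tells KD1 from KD2.

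The sequence of SMARCA4 siRNA-1 in the labels is shown because the comparisons below rest on the knockdowns, with bases 2 to 8 in capitals, which in a guide strand are the seed through which an siRNA can also act on transcripts other than its target. The labels give 1 strand and do not say whether it is the guide. Nor do they say which sequence went with which array.
SMARCA4 siRNA-1: uCGCUUUGguucgcaaauc

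Notch receptors are membrane proteins that bind ligands on a neighbouring cell. Binding lets ADAM proteases and then the gamma-secretase complex cut the receptor, and the freed intracellular part joins RBPJ and Mastermind proteins on DNA and switches on targets such as the HES and HEY repressors. In the crypts of the intestine the pathway maintains dividing progenitors and favours the absorptive over the secretory fate.

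The label check came first. The SMARCA4 probe (hg19, chr19:11172673-11172732) had a processed signal of 14026 on the NC array, 3960 on SMARCA4-KD1 and 4129 on SMARCA4-KD2, which after scaling leaves 26.6% and 28.8% of NC. Where signals follow without a label below, they stand in this order, and a pair of folds or log2 fold changes is SMARCA4-KD1 and then SMARCA4-KD2. PRMT1 was 7683, 9801 and 10147, with log2 fold changes of 0.27 and 0.37. SMARCA4 was therefore low and PRMT1 was not low on both arrays labelled as knockdowns, as the titles and not the treatment field would have it. A processed signal is the intensity of a spot after background subtraction and detrending, and fold changes are differences of log2 signal after each array's 75th percentile had been subtracted (the percentile was an intensity of 223, 237 and 228 on NC, SMARCA4-KD1 and SMARCA4-KD2). Between 45.7% and 47.3% of the probes were well above background on an array, and the lowest such signal was 16.4 to 17.7. The 2 knockdown arrays were on 1 slide and NC on another, so slide and knockdown cannot be told apart. In bulk RNA, fewer cells that carry a transcript and less of it per cell cannot be told apart either.

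Markers of the cell type were read on the same arrays. Of 10 markers of colorectal epithelium, 7 were well above background on all 3 arrays, among them EPCAM, KRT8 and KRT18. Their summed signal was 369791 (NC), 398052 (SMARCA4-KD1) and 390208 (SMARCA4-KD2), while VIL1, CEACAM5 and LGALS4 were well above background on none. Endothelial cells also use NOTCH4 and DLL4, and of 7 endothelial markers VWF, CDH5 and ESAM were well above background on all arrays, with a summed signal of 179 (NC), 172 (SMARCA4-KD1) and 205 (SMARCA4-KD2), while PECAM1, KDR, TEK and TIE1 were on none. Of 8 mural cell and fibroblast markers 3 were well above background on all arrays (RGS5, ACTA2 and COL1A1), with a summed signal of 777, 1064 and 1066, and PDGFRB, COL1A2 and COL3A1 were among the 5 on none. Of 7 leukocyte markers 5 were, PTPRC and CD3D among them, with a summed signal of 244, 281 and 239, and CD3E and MS4A1 were on none. PTPRC (46.3, 49.4 and 37.0) and CD3D (58.1, 63.4 and 63.9) were near the lower end of the measured range. No kept marker of these lists was at least 1.5-fold from NC in the same direction in both knockdowns. Over all genes 8.03% were that much lower in both and 6.35% that much higher. In SMARCA4-KD2 alone VWF, CDH5 and ACTA2 were past 1.5-fold higher, with log2 fold changes of 1.08, 0.70 and 0.86.

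At a fold change of 1.5, the threshold of the study's methods, 1 of the 8 kept Notch genes was lower in both knockdowns, NOTCH4, and none was higher in both. Over all genes 8.03% were that much lower in both and 6.35% that much higher. Taken singly, SMARCA4-KD1 had 1 Notch gene past 1.5-fold lower (12.3% of all genes) and none higher (11.2%), and SMARCA4-KD2 had 1 lower (9.74%) and 1 higher (10.1%). Over the 8 genes the log2 fold changes had a median of -0.04 (SMARCA4-KD1) and -0.07 (SMARCA4-KD2), against -0.0038 and 0.02 over all genes. At any size, NOTCH2, NOTCH4 and JAG1 were lower in both knockdowns, NOTCH3, DLL1 and JAG2 were higher in both, and NOTCH1 and RBPJ went one way in each. Over all genes 39.3% were lower in both and 41.1% higher in both at any size. NOTCH2, NOTCH3, NOTCH4, JAG1 and JAG2 kept their direction in both knockdowns under every scaling tried, whereas the other 3 crossed 0 in 1 knockdown under some setting. In SMARCA4-KD2, NOTCH1 was at -0.02 and DLL1 at -0.04 when the percentile was taken over detected probes, and DLL1 was also below 0 under quantile normalization and normexp. In SMARCA4-KD1, RBPJ was at -0.09 under quantile normalization.

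**Figure D1:**
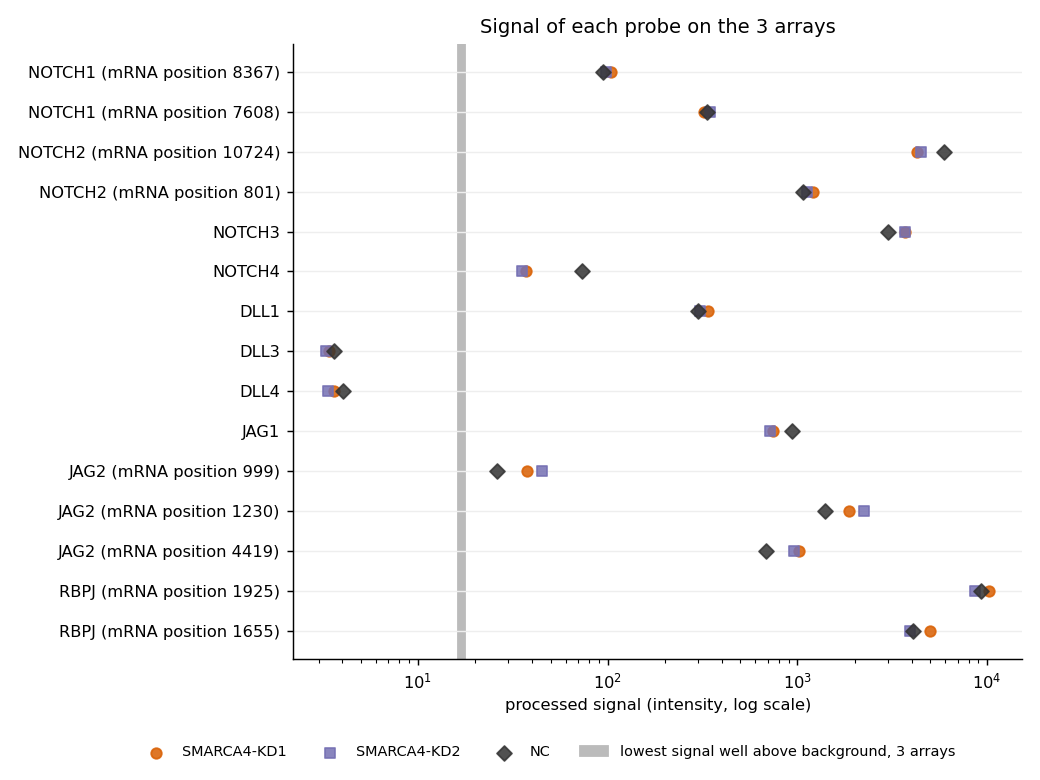
Processed signal (intensity, log axis) of the 15 Notch probes on the SMARCA4-KD1, SMARCA4-KD2 and NC arrays, with 1 point per array, and the grey band marking the lowest signal well above background, 16.4 to 17.7. The DLL3 and DLL4 probes lie left of the band on every array, and NOTCH4 has both knockdowns well left of NC. Signals of different probes are not comparable as levels.

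The receptors differed in direction. For NOTCH1, a receptor active in crypt stem cells, the brighter probe (hg19, chr9:139390523-139390582, minus strand) is shown with its last 3 bases in capitals, which spell a stop codon.
NOTCH1 probe: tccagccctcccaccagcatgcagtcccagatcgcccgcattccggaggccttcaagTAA
It gave a signal of 333 (NC), 320 (SMARCA4-KD1) and 346 (SMARCA4-KD2). The 3 arrays were close to each other, with log2 fold changes of -0.14 and 0.02 and a spot error of 0.21 on each. The spot error is the extraction software's own error of the signals, carried into the difference of 2 arrays, and holds no biological spread. The other NOTCH1 probe, further 3′, gave 94.5, 104 and 98.5, or log2 fold changes of 0.05 and 0.03, so neither probe showed a difference beyond its spot error.

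NOTCH2 depended on the probe. The brighter one, near the 3′ end of the transcript (hg19, chr1:120454858-120454917, minus strand), gave 5915 (NC), 4245 (SMARCA4-KD1) and 4459 (SMARCA4-KD2). Both knockdowns were below NC, by 1.48-fold and 1.36-fold, with log2 fold changes of -0.56 and -0.44 and a spot error of 0.20. The other starts at base 801 of the transcript and is shown because it did not give the same answer. Its capitals mark the TGC and TGT codons for cysteine, in the reading frame without a stop that holds most of them, as the repeats that bind ligands are rich in cysteine.
NOTCH2 probe, chr1:120539807-120539866, minus strand: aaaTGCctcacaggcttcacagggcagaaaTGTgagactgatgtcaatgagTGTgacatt
This probe gave 1065 (NC), 1215 (SMARCA4-KD1) and 1123 (SMARCA4-KD2). The log2 fold changes were 0.10 and 0.04, within the spot error. The array files list it for both NOTCH2 transcripts and also for NOTCH2NLA, a partial copy of the gene, so its signal cannot be assigned to NOTCH2 alone, whereas the 3′ probe is listed for only 1 of those 2 NOTCH2 transcripts. The mean log2 fold changes of the 2 probes were 0.58 apart, and of the 4527 genes with at least 2 probes well above background on all arrays 15.2% had their 2 brightest probes at least as far apart. With the mean over both probes NOTCH2 was at -0.23 and -0.20.

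NOTCH3 had 1 probe (hg19, chr19:15270489-15270548, minus strand), with signals of 2994 (NC), 3704 (SMARCA4-KD1) and 3683 (SMARCA4-KD2). Both knockdowns were above NC and nearly equal to each other. They were 1.17-fold and 1.20-fold higher, log2 fold changes of 0.22 and 0.27 with a spot error of 0.20.

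NOTCH4, a receptor best known from endothelium, stood furthest from NC of the 8 kept genes. Its probe (hg19, chr6:32162624-32162683, minus strand) gave 73.5 (NC), 37.3 (SMARCA4-KD1) and 35.2 (SMARCA4-KD2), all well above background but near the lower end of the measured range. The knockdowns were 2.09-fold and 2.13-fold lower than NC, or 47.8% and 46.9% of it, with log2 fold changes of -1.07 and -1.09 and a spot error of 0.26. Of all genes 1.72% (388) had a drop of at least this size with both siRNAs, and 2.11% were past 2-fold lower with both. With normexp background correction, whose offset shrinks the fold changes of dim probes, NOTCH4 was at -0.55 and -0.52 and no longer reached 1.5-fold (0.585 on the log2 scale). Of the endothelial markers, ESAM was at -0.34 and -0.38, VWF at 0.13 and 1.08 and CDH5 at 0.23 and 0.70. The VWF and CDH5 probes were dim, with signals of 24.1 and 36.9 on NC. Whether NOTCH4 and these markers are linked was not tested.

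**Figure D2:**
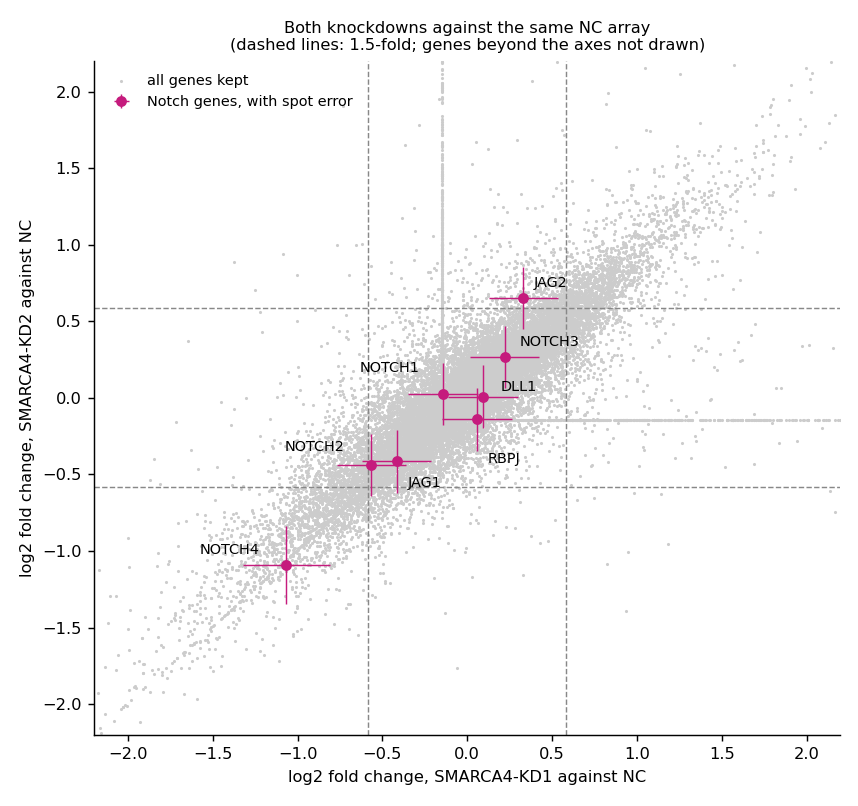
Log2 fold change against NC in SMARCA4-KD1 (x axis) and SMARCA4-KD2 (y axis) for the 8 kept Notch genes (points with spot errors, brightest probe) over all 22619 genes (grey), which share the NC array on both axes. NOTCH4 is past 1.5-fold (dashed lines) in both knockdowns and JAG2 in SMARCA4-KD2 alone. The straight grey lines are genes not well above background on NC and 1 knockdown array, or on both knockdown arrays. Their values there were set to the lowest well above background. On the diagonal line both knockdown values were set in this way, so their closeness there was not measured. Such genes are also counted in the share of all genes lower in both.

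Of the Delta ligands only DLL1, a ligand that crypt cells use, was well above background. Its probe (hg19, chr6:170591642-170591701, minus strand) gave 300 (NC), 339 (SMARCA4-KD1) and 308 (SMARCA4-KD2), log2 fold changes of 0.09 and 0.01. These lie within the spot error of 0.21. DLL3, an atypical ligand that acts mostly inside the cell, was not well above background on any array, with 3.61, 3.42 and 3.29. DLL4, the ligand known from sprouting vessels and also from crypts, was not either, with 4.05, 3.60 and 3.36. No fold change is given for DLL3 and DLL4.

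The Jagged ligands went opposite ways. JAG1 (hg19, chr20:10619061-10619120, minus strand) had a signal of 938 (NC), 746 (SMARCA4-KD1) and 720 (SMARCA4-KD2). Both knockdowns were 1.33-fold lower than NC, with log2 fold changes of -0.42 and -0.41 and a spot error of 0.20, and the knockdown arrays differed from each other by less than that error. Of all genes 13.5% were lower by at least as much in both.

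JAG2 was the ligand with most probes, 3 along its transcript, and all 3 are listed for both of its RefSeq transcripts. The pair toward the 5′ end, which start at bases 999 and 1230, is shown because the probes read different stretches of the transcript, with TGC and TGT in the frame chosen as above again in capitals.
JAG2 probe, chr14:105622147-105622206, minus strand: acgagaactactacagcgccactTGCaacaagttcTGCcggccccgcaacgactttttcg
JAG2 probe, chr14:105618531-105618590, minus strand: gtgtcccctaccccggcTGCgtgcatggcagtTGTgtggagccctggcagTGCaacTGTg
The second of these, the brightest, gave 1400 (NC), 1867 (SMARCA4-KD1) and 2248 (SMARCA4-KD2). Its log2 fold changes were 0.33 and 0.65 with a spot error of 0.20, so that JAG2 was 1.26-fold higher in SMARCA4-KD1 and 1.57-fold higher in SMARCA4-KD2. It was the only Notch gene past 1.5-fold higher in SMARCA4-KD2, where 10.1% of all genes were. The first, a dim probe, gave 26.1, 37.4 and 45.1, log2 fold changes of 0.43 and 0.76 with errors of 0.31 and 0.30. The 3′ probe (chr14:105608674-105608733) gave 684, 1015 and 956, log2 fold changes of 0.48 and 0.45. All 3 probes thus had NC lowest, and the knockdowns differed from each other by 0.32 on the brightest probe, a gap that 18.2% of all genes reached.

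RBPJ turns the receptor signal into transcription, and without the receptor it binds corepressors. Its brighter probe (hg19, chr4:26432686-26432745, plus strand) gave 9294 (NC), 10266 (SMARCA4-KD1) and 8617 (SMARCA4-KD2), or 0.06 and -0.14 as log2 fold changes. The other probe (chr4:26432416-26432475) gave 4059, 4975 and 3926, log2 fold changes of 0.21 and -0.08. NC lay between the knockdowns on both probes, and only the 0.21 of the second probe reached the spot error of 0.20. RefSeq lists 4 RBPJ pseudogenes, and whether the probes also read them was not tested.

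**Figure D3:**
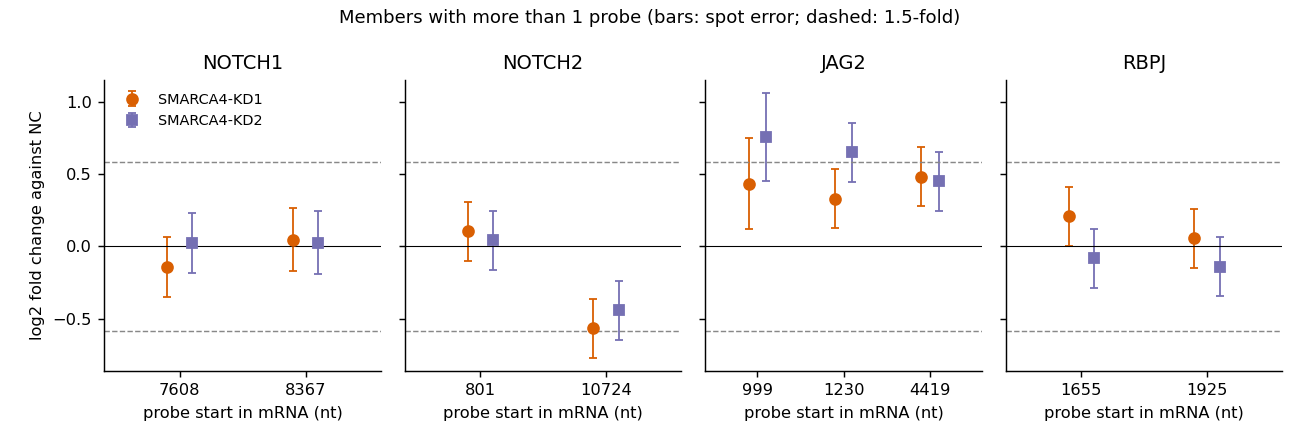
Log2 fold change against NC for each probe of NOTCH1, NOTCH2, JAG2 and RBPJ, ordered by the probe's start in the transcript (nucleotides), in SMARCA4-KD1 and SMARCA4-KD2, with the spot error as bars and 1.5-fold as dashed lines. The 3 JAG2 probes are all above 0 in both knockdowns, while the 2 NOTCH2 probes lie at 0.10 and 0.04 and at -0.56 and -0.44.

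With both knockdown arrays taken as replicates of 1 condition against NC, limma has 1 residual degree of freedom and assumes that the lone NC array varies like the knockdowns. At an adjusted p of 0.05 limma called 0 of the 22619 genes, and so 0 of the 8 Notch genes, with 7143 genes (31.6%) at an unadjusted p under 0.05. Of the Notch genes 4 had an unadjusted limma p under 0.05, NOTCH2, NOTCH3, NOTCH4 and JAG1. In limma the adjusted p was 0.0756 for NOTCH4, 0.0831 for NOTCH2, 0.0975 for JAG1, 0.154 for NOTCH3 and 0.173 for JAG2, while the lowest over all genes was 0.0675. These calls depended on the processing, the filter for dim probes included. With only the 19503 genes that had a probe well above background on all arrays, limma called 5176 genes (26.5%) and among them NOTCH2, NOTCH4, JAG1 and JAG2. Over the settings the adjusted limma p ran from 0.0141 to 0.0815 for NOTCH4, from 8.6e-07 to 0.191 for NOTCH2, from 9.6e-04 to 0.0988 for JAG1, from 3.1e-06 to 0.173 for JAG2 and from 0.0198 to 0.230 for NOTCH3, which limma called without a filter. The lowest values for NOTCH2, NOTCH3, JAG1 and JAG2 all came without a filter. In that setting limma called most of the genes tested, and also DLL3 and DLL4, which were not well above background on any array. For NOTCH1, DLL1 and RBPJ limma gave no adjusted p under 0.05 in any of the 9 settings. A t-test was also run at the p of 0.01 and the 1.5-fold of the microarray methods, which name no test for that p. It called 434 of the 22619 genes and 0 of the 8 Notch genes. With so few genes called, the 0 says little about the Notch genes. After Benjamini-Hochberg adjustment the t-test called 0 of all genes, and so 0 Notch genes.

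**Figure D4:**
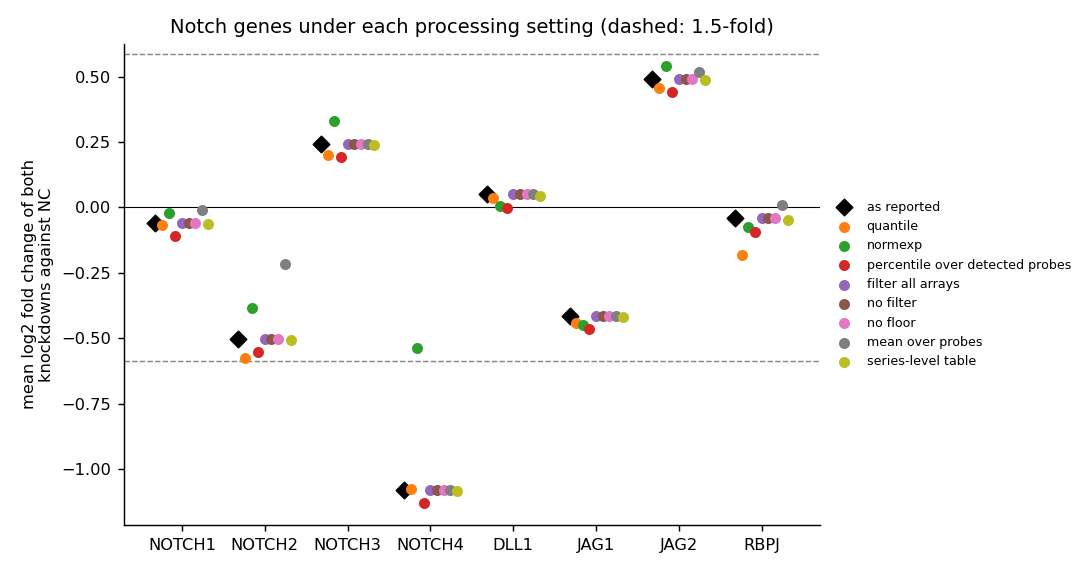
Mean log2 fold change of both knockdowns against NC for the 8 kept Notch genes under each processing setting, the diamond being the value as reported, with 1.5-fold as dashed lines. NOTCH4 moves inside the line with normexp, NOTCH2 moves toward 0 with the mean over its probes, and JAG1, NOTCH3 and JAG2 stay on 1 side of 0 throughout.

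The rest of the pathway was read from hand-written lists. Of 62 other pathway genes 54 were kept, of which 7 lay past 1.5-fold below NC with both siRNAs (8.03% of all genes did) and 4 lay as far above it (6.35%). Their median log2 fold changes were -0.03 and 0.06. The genes that passed fell into different roles, and the same shares of all genes stand beside the counts of each list below.

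Among the 17 genes that process receptors and ligands, all kept, 1 was lower and 2 were higher in both knockdowns. NCSTN encodes nicastrin, the subunit of gamma-secretase that takes in the substrate, and had a signal of 3289 (NC), 5434 (SMARCA4-KD1) and 5321 (SMARCA4-KD2), 1.56-fold and 1.58-fold higher. The other subunits given here were named after their values were seen and, by their brightest probe, did not reach 1.5-fold in both. APH1A was at 0.46 and 0.52 on the log2 scale and PSENEN at 0.36 and 0.29. A second, dimmer APH1A probe gave 158, 259 and 252.5, 1.55-fold and 1.56-fold higher, and so was past 1.5-fold in both. APH1B, which can take the place of APH1A in the complex, was at -0.67 and -0.38, and PSEN2, a catalytic subunit, at -0.70 and -0.53. NCSTN itself was just short of 1.5-fold in SMARCA4-KD1 under quantile normalization (0.57) and with the percentile over detected probes (0.58).

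POFUT1, which adds the O-fucose that Notch receptors need, gave 246, 475 and 384, 1.82-fold and 1.53-fold higher, with a second probe at log2 fold changes of 0.64 and 0.74. With normexp it was at 0.78 and 0.55 and with the percentile over detected probes at 0.81 and 0.57, below 1.5-fold in SMARCA4-KD2 in each case. LFNG, a Fringe enzyme that extends this sugar and makes NOTCH1 respond more to Delta than to Jagged ligands, gave 987, 565 and 492, 1.85-fold and 2.05-fold lower. Its second probe did not follow, with 96.5, 78.4 and 104 and log2 fold changes of -0.39 and 0.08, and the mean of the probes was at -0.64 and -0.48. The sheddases ADAM10 and ADAM17, also named after their values were seen, were at -0.26 and -0.11 and at 0.60 and 0.48.

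Of 17 nuclear cofactors 15 were kept and KAT2B was the only one past 1.5-fold in both knockdowns. KAT2B, an acetyltransferase also called PCAF, gave 191 (NC), 77.4 (SMARCA4-KD1) and 86.5 (SMARCA4-KD2), 2.62-fold and 2.26-fold lower. MAML2 and KDM5A were not well above background on any array. The median log2 fold changes of the list were -0.11 and 0.03.

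Of 16 modulators and atypical ligands 14 were kept, 2 of them lower and 1 higher. CCN3, an extracellular protein that the array names NOV, gave 444, 158 and 181, 2.98-fold and 2.51-fold lower. DTX3L, a ubiquitin ligase of the Deltex family, gave 151, 57.5 and 52.2, 2.79-fold and 2.96-fold lower. NRARP, a target of Notch that damps its signal, gave 2851, 5463 and 4727, 1.81-fold and 1.62-fold higher.

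Of 13 targets, NRARP among them, 9 were kept, while HES5, HES7, HEY2 and HELT were not well above background on any array. Of the 9, 3 were lower and 2 higher in both knockdowns, beside 8.03% and 6.35% of all genes. HES1, the repressor that holds crypt progenitors from the secretory fate, gave 139 (NC), 90.7 (SMARCA4-KD1) and 79.8 (SMARCA4-KD2), 1.63-fold and 1.78-fold lower, but was at -0.39 and -0.49 with normexp, short of 1.5-fold. CCND1, the G1 cyclin D1, gave 4960, 3206 and 2549, 1.64-fold and 1.99-fold lower. HEY1, a repressor of the related HEY family, gave 137, 71.2 and 68.7, 2.05-fold and 2.04-fold lower.

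HES4 was higher where HES1 was lower, at 36855, 69254 and 69908, 1.77-fold and 1.85-fold higher, with no saturated spot. MYC, named after its values were seen, was 1.71-fold and 1.49-fold higher, just short of the line in SMARCA4-KD2. The targets thus included repressors on both sides of NC, and their median log2 fold changes were 0.18 and 0.20. Limma gave no adjusted p under 0.05 for the pathway genes named, as it gave none for any of the 22619 genes. The lowest among them, 0.0675 in limma, was also the lowest over all genes. The lack of calls is thus not particular to these genes.

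**Figure D5:**
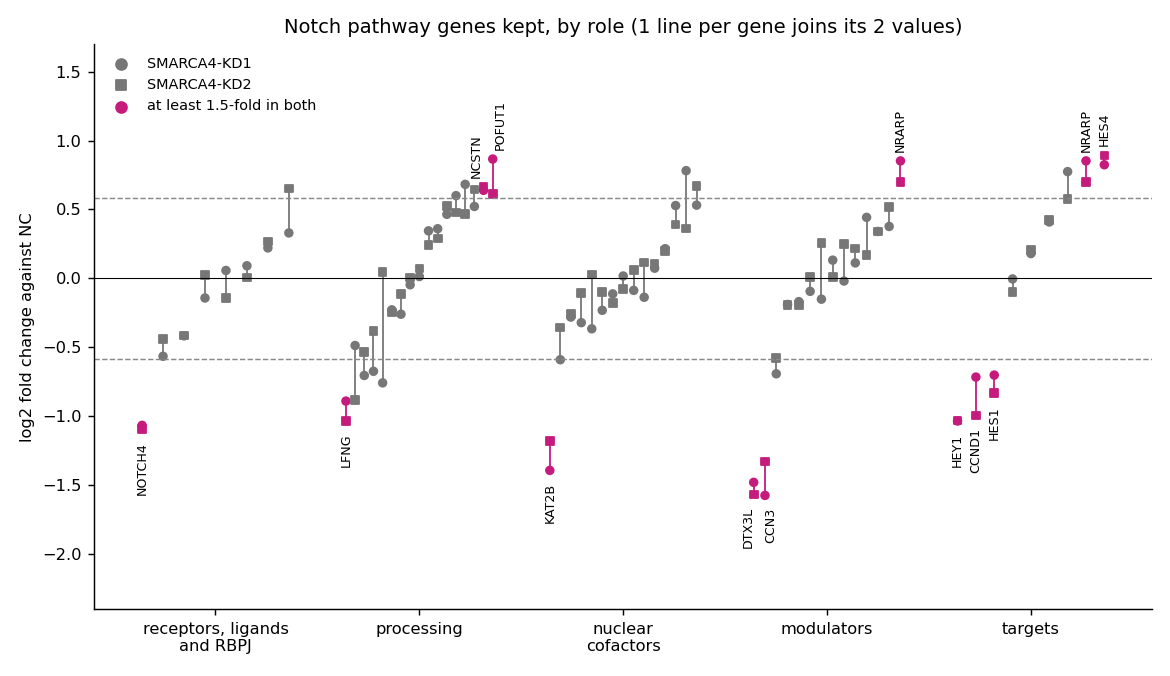
Log2 fold change against NC of every kept gene of the Notch lists, grouped by role, with the SMARCA4-KD1 value (circle) and the SMARCA4-KD2 value (square) of a gene joined by a line and 1.5-fold as dashed lines. Genes past 1.5-fold in both knockdowns are named and lie on both sides of 0, and NRARP is drawn in 2 lists.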

How the data were processed

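Each deposited scanner file gives the intensity of 62976 spots. The authors used Agilent Feature Extraction 10.7.1.1 (submitters' processing notes), which subtracted background and detrended each array, and nothing was normalized between arrays. Other deposited columns, such as flags, probe positions (hg19), transcript positions and the error of each spot, which were not scores of expression, were used as given. The deposited series-level table holds the same intensity, and 0 of the 15 Notch probes differed by more than 0.1%.

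Control spots and outlier flags were left out, repeated spots were averaged, and log2 of the deposited processed signal minus the array's 75th percentile was used. Values that were not well above background were raised to a floor, the lowest value that was, unless they were higher already. Probes detected well above background on 1 array or more (29333) were kept, and the brightest stood for each of 22619 genes. Each of the 15 Notch probes has 1 spot. Each knockdown was compared with NC without a test, and limma 3.58.1 (R 4.3.3, intensity trend, Benjamini-Hochberg over all genes) compared both with NC. The steps were run on simulated data in which every array, NC included, varied as the knockdown arrays did from each other. Whether the real NC array varies in that way was thus not tested, and the outcome of the simulation is not reported here. Python 3.11.15, numpy 2.4.6, pandas 2.3.3 and matplotlib 3.10.9 were used.

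Alternatives were quantile normalization, normexp (offset 50), the percentile over probes detected on all arrays, the mean over probes, no floor, no filter or one that asked for all arrays, the series-level table, 2-fold as the threshold, and limma without the trend or with an unadjusted p, and a t-test, the test of the general statistics methods, at the p of the microarray methods. The text names all 10 Notch genes, SMARCA4, PRMT1, genes of the pathway lists at least 1.5-fold from NC in the same direction in both knockdowns, at most 8 a list, and of each marker list the first 3 well above background on all arrays and on none, with exceptions marked. TIE1 was added to complete its list. The Notch genes and the lists were chosen with earlier results of these data known. The names of all 10 Notch genes are in the RefSeq table used for names. Whether a probe lies in coding or untranslated sequence was not analysed here. The PRMT1 knockdown arrays were not analysed here. A few items of the lists and labels are not reported here.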

Additional observations from a re-analysis of the deposited data

How the results depend on the processing

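No paired analysis was possible because each group had 1 array, and for the same reason no replicate could be left out. The count of Notch genes lower in both knockdowns at 1.5-fold was 1 except with normexp, where it was 0. Of the 8 kept Notch genes limma called 0 as reported, 4 with the filter on all arrays, 2 without the floor, 2 with normexp, 1 with quantile normalization, 2 with the series-level table and 4 by an unadjusted p. Without a filter, where all 10 Notch genes were tested, it called 7 of the 10. These include DLL3 and DLL4, whose values are then those of the floor on each array (log2 fold changes of -0.15 and -0.14). Over all genes limma called 5176 of 19503 with the filter on all arrays and 30934 of 43299 without a filter. Of 22619 genes it called 3360 without the floor, 3709 with normexp, 2432 with quantile normalization and 1598 with the percentile over detected probes. With the series-level table it called 3731 of 22628, against 0 of 22619 as reported. The counts of Notch genes are to be read beside these. The cause of these differences between settings was not tested. Without a filter the median of all genes moved to -0.15 and -0.14. In the pathway lists, a threshold of 2-fold left 0 processing genes on either side of NC, 0 modulators and 0 targets higher, and 1 target lower. Processing genes higher in both knockdowns at 1.5-fold numbered 1 with normexp, 1 with quantile normalization and 0 with the percentile over detected probes, and 0 were lower with the mean over probes. The nuclear list had 1 gene higher without the floor and 1 with the series-level table, and the secretory list 1 lower with the percentile over detected probes. The median of the Notch genes ran from -0.15 to 0.02 in SMARCA4-KD1 and from -0.14 to -0.05 in SMARCA4-KD2. No Notch gene past 1.5-fold changed direction. Signal over background leaves DLL3 and DLL4 without a value and, of the probes kept, gives NOTCH4 and the dim JAG2 probe spot errors above those of the rest.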

Other observations

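Genes of the secretory lineage of the intestine, which Notch signaling holds down in crypts, were measured only in part. Of 12 such genes 6 were kept, and ATOH1, TFF3, CHGA, CHGB, REG4 and AGR2 were not well above background on any array. None of the 6 was at least 1.5-fold from NC in the same direction in both knockdowns, beside 8.03% of all genes that were lower and 6.35% that were higher, and the median log2 fold changes were 0.13 and -0.13. The genes named next were chosen after their values were seen. GFI1, a repressor needed for goblet and Paneth cells, had a signal of 258 (NC), 171 (SMARCA4-KD1) and 179 (SMARCA4-KD2), 1.60-fold and 1.47-fold lower. MUC2, the main mucin of goblet cells, had 67.9, 88.2 and 64.2, with NC between the knockdowns. FCGBP, another product of goblet cells, had 116.4, 149 and 179, with log2 fold changes of 0.27 and 0.59.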
